A study of Malus domestica with 9 samples.

Results

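A set of 111 well expressed genes of apple peel whose mean level changed little over the first day of light is described here, out of 46558 genes in the deposited expression table. The study sequenced RNA from the fruit peel of Malus domestica, the cultivated apple, during the change from green to red after the fruit had been taken out of its bag. The peel had received 0 h, 6 h or 24 h of light, and each of these times has 3 libraries, which the submitters call biological replicates. The cultivar is not named in the labels, all groups had been bagged, and no bagged fruit of 6 h or 24 h is among the samples. Light, bag removal and elapsed time therefore cannot be told apart. The same holds for time of day at 6 h, while 24 h is a whole day after 0 h.

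The members were chosen by their values. Levels are given in FPKM, which by name are fragments per kilobase of a gene and per M (mega) of mapped fragments, and which can be compared between genes because the length is divided out. In the deposited values the library's own denominator was not its number of reads in genes but followed a scaling that is described below. A gene was a member when its mean over the 9 libraries was at least 100 and under 500 FPKM and when the time means differed little. For the second condition the mean FPKM of each time was turned into log2(FPKM + 1), and all 3 differences between times had to stay under 0.25 log2 units in size. Near levelness of the time means is therefore what the rule used, and it is not a finding. The spread between libraries of the same time, the gene length and the number of reads did not enter the rule directly.

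Genes that keep their level while a tissue responds to a signal are often called housekeeping or reference genes. Many of them serve tasks that every cell carries out, such as making proteins, taking them apart, moving vesicles and building the cytoskeleton. In fruit that is turning red, genes of the pigment pathway change strongly, and a set of steady genes gives the level against which such changes are read in quantitative PCR. The deposited table gives apple locus identifiers and does not pair them with gene names, and none of them (0 of 46558) occurs in the RefSeq gene table used here. No function, position or sequence is therefore given for any member, and the tissue could not be checked against marker genes. In a bulk sample, a change in the number of cells of one type cannot be told apart from a change in RNA per cell.

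The whole count of reads behind each value was recovered from the steps of the FPKM values. The libraries held 15331227 to 19495791 reads in genes. The third library of 24 h stood apart from all others before any choice of genes was made: its summed FPKM was 870488, against 635836 to 704706 in the other 8 libraries. Its reads in genes, the most of all libraries, were 1.21 times the denominator that its FPKM contain, against 0.910 to 1.03 times in the others. The main results on 24 h that rest on this library are therefore also given without it.

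Of the 1002 genes between 100 and 500 FPKM, 111 kept the 3 limits, which is 11.1%. The share was 11.5% of 10816 genes between 10 and 100 FPKM and 12.9% of 13456 genes between 1 and 10 FPKM. None of the 88 genes at 500 FPKM or more kept them. Most members lay in the lower part of the window, as did most of its genes. Members were 47 of 466 genes between 100 and 150 FPKM and 32 of 212 between 150 and 200. They were 20 of 184 between 200 and 300 and 12 of 140 between 300 and 500. Their median level was 164.7 FPKM, against 157.5 FPKM in the other genes of the window.

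The members had many reads and were shorter than the typical expressed gene. A member had 434 to 13095 reads in a library, with a median of 3018. Counting error alone gave a median SD of 0.0266 log2 units per library, and at most 0.0643. Their median length, as recovered from the FPKM steps, was 1009 bases. It was 1156 bases in the other 891 genes of the same window and 1533 bases in all 25362 genes that reached 1 FPKM on average, which are called the tested genes below. By the digits after MD in the identifiers, the members came from all 17 numbered groups, with 2 to 10 in each, and none carried the digits 00. In 3 cases both of a pair of neighbouring rows of the table were members. One such pair, MD04G1225000 and MD04G1225100, had means over all libraries of 333.2 and 250.9 FPKM.

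The 3 members with the smallest range over all libraries were, by that choice, level in single libraries as well as in the means. MD12G1241700 stood at 167.2, 173.0 and 178.1 FPKM at 0 h, at 170.6, 192.4 and 183.2 at 6 h, and at 167.7, 170.6 and 170.3 at 24 h. Its libraries overlapped between all times, the highest was 1.15 times the lowest, and the third 24 h library lay between its partners. MD04G1225000 was at 326.0, 319.3 and 343.7 FPKM at 0 h, at 318.1, 356.9 and 331.4 at 6 h, and at 316.0, 315.0 and 372.2 at 24 h. Its times overlapped too, and its highest value was that of the third 24 h library, at 1.18 times the lowest. MD07G1189600 was at 124.3, 123.7 and 115.3 FPKM at 0 h, at 110.9, 116.4 and 115.4 at 6 h, and at 120.0, 104.5 and 122.9 at 24 h. Its highest value, 1.19 times the lowest, was that of a 0 h library. The 3 genes kept the limits without the third 24 h library.

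The 3 members with the largest range show another picture, in which the mean at 24 h was made of unlike libraries. MD13G1199600 had 299.8, 313.1 and 332.8 FPKM at 0 h and 368.4, 352.5 and 385.2 at 6 h. At 24 h it had 262.4 and 251.5 FPKM in the first and second library and 504.4 in the third. The lowest and the highest of its 9 values thus belonged to the same time, and the highest was 2.01 times the lowest. MD17G1082800 had 139.9, 156.9 and 166.3 FPKM at 0 h, 127.3, 143.7 and 152.4 at 6 h, and 124.8, 124.1 and 239.9 at 24 h. MD15G1202200 had 303.9, 314.6 and 319.9 FPKM at 0 h, 248.7, 269.5 and 286.4 at 6 h, and 226.8, 238.9 and 421.4 at 24 h. In each of the 3 genes the first and second 24 h libraries lay below every 0 h library and the third lay above every one. Without the third library, their differences of 24 h from 0 h were -0.29, -0.31 and -0.42 log2 units, past the limit of 0.25. With it they were 0.11, 0.08 and -0.08.

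**Figure D1:**
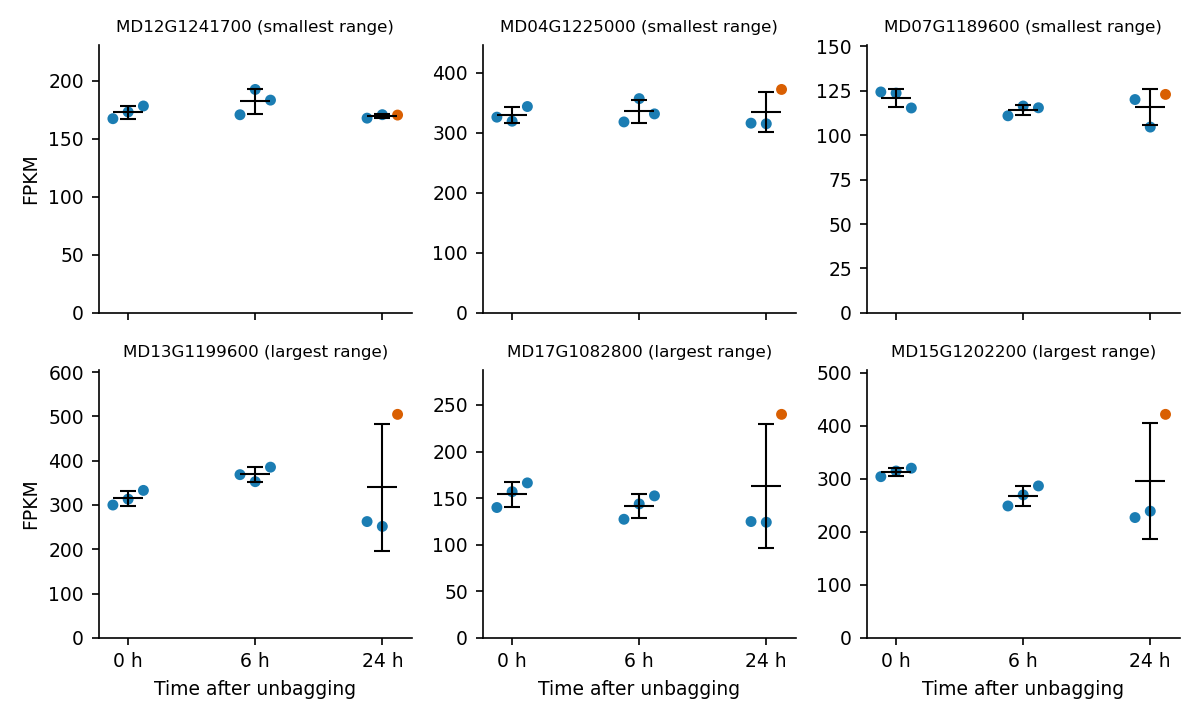
FPKM (linear axis from 0) at 0 h, 6 h and 24 h of the 3 members with the smallest range (upper row) and the 3 with the largest range (lower row). Points are libraries, the third 24 h library is orange, and black bars are the mean ± SD of 3 libraries. In the lower row the 24 h mean lies between 2 low libraries and 1 high library, for MD13G1199600 at 262.4, 251.5 and 504.4 FPKM.

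This arrangement was common among the members. The third 24 h library was the highest of its time in 99 of 111 members (89.2%). The shares were close to that in the other genes of the window, at 85.0%, and 46.2% in the tested genes. It was the highest of all 9 libraries in 83 members (74.8%), against 47.0% and 24.5%. In 66 members (59.5%) the first and second 24 h libraries both lay below all 0 h libraries, against 41.8% and 36.6%. In 91 (82.0%) the third lay above all of them, against 65.2% and 45.6%. Both held at once in 57 members, which is 51.4%. It held in 9.43% of the other genes of the window and in 3.14% of the tested genes. A gene in which the 24 h libraries lie on both sides of the 0 h level tends to pass a rule on time means, so these shares are a description and carry no test.

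**Figure D2:**
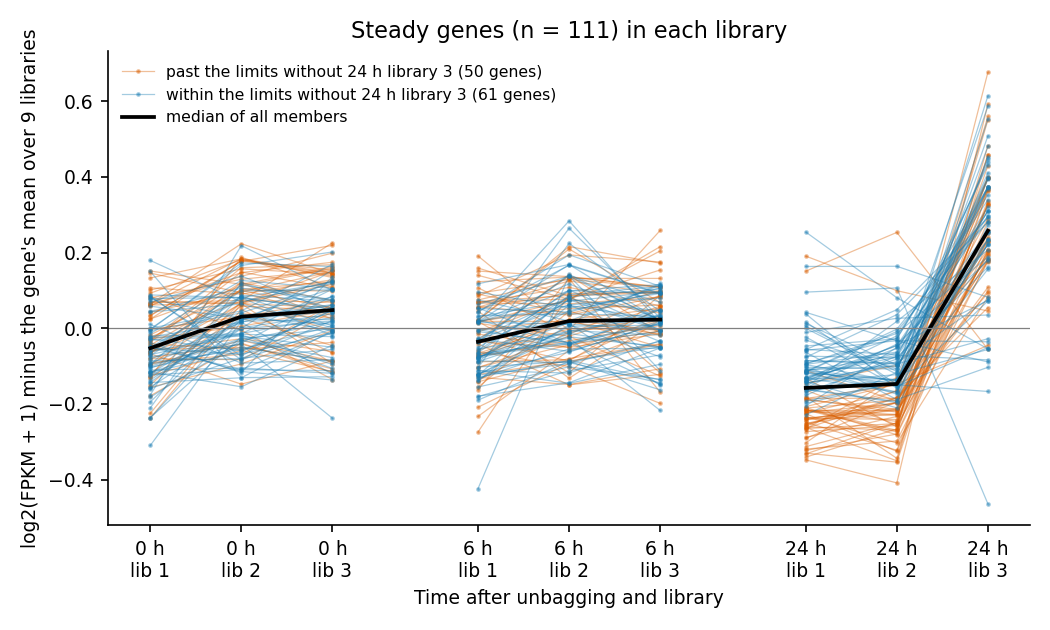
Each thin line is 1 of the 111 members within a time, as log2(FPKM + 1) minus the gene's own mean over 9 libraries (vertical axis), for the 9 libraries (horizontal axis). Blue members (61) kept the limits without the third 24 h library and orange members (50) did not; the black line is the median, which is low in the first and second 24 h libraries and high in the third.

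The height of the third library was shared with genes of like abundance outside the rule. In the members it was 1.34 times the mean of the other 24 h libraries (median of 111 genes, range 0.675 to 1.96). The median was 1.32 in the other genes of the window and 1.02 in the tested genes. As a deviation from the mean of its time it was 0.28 log2 units in the members and 0.27 in the other genes of the window. Over levels, the median deviation went from -0.07 between 1 and 10 FPKM over 0.08 between 10 and 100 FPKM to 0.41 at 500 FPKM or more. Within the members too it was higher at higher levels, with a median ratio of 1.29 between 100 and 150 FPKM and 1.44 between 300 and 500 FPKM. The first and second 24 h libraries differed from each other by a median of only 0.06 log2 units in the members. MD10G1111600, picked with its values known, was the member in which the third library was lowest against its partners. It had 282.4, 284.6 and 191.3 FPKM at 24 h, against 263.5 to 298.0 at 0 h and 252.1 to 271.1 at 6 h. The part of depth, RNA quality or other properties of that library in these values was not tested.

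**Figure D3:**
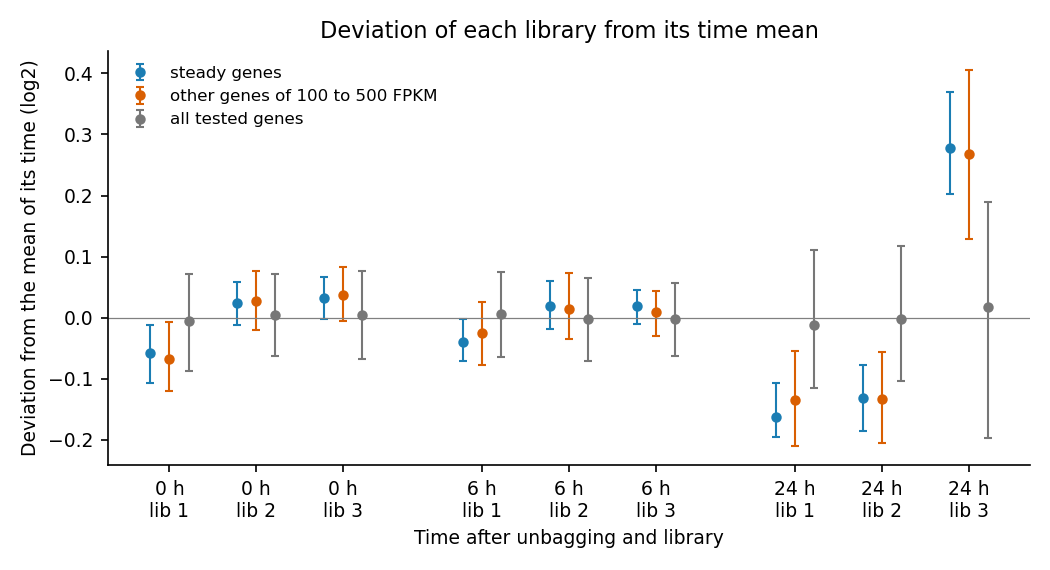
Deviation of each library from the mean of its time in log2(FPKM + 1) (vertical axis), for the 111 members, the other 891 genes of 100 to 500 FPKM and the 25362 tested genes. Points are medians over genes and bars reach from the lower to the upper quartile; the third 24 h library is at 0.28 in the members and 0.27 in the other genes of the window.

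At 0 h and 6 h the members were tighter between libraries than at 24 h. The median SD between the 3 libraries of a time was 0.07 log2 units at 0 h, 0.05 at 6 h and 0.24 at 24 h. The other genes of the window had 0.09, 0.07 and 0.25, and the tested genes 0.11, 0.10 and 0.19. Over all times together the median within-time SD of the members was 0.149 log2 units, and it was 0.0667 without the third 24 h library. The spread at 0 h and 6 h was above the counting error given above. The median highest-to-lowest ratio over the 9 libraries was 1.39 in the members, and 78 of them (70.3%) stayed within a factor of 1.5. It was 2.31 in the other genes of the window, with 6.51% within that factor, and 2.36 in the tested genes, with 12.5%. The rule holds the time means close together, so a small ratio in the members follows in large part from the choice. Without the third 24 h library the median ratio of the members was 1.26, and 110 of them stayed within a factor of 1.5. A factor of 1.3 held in 16 members over 9 libraries and in 63 without the third 24 h library.

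The differences of 6 h from 0 h are computed without the 24 h libraries, which nevertheless took part in the choice of the members. The rule kept each of these differences under 0.25 log2 units, so the values describe the chosen genes and cannot show whether they shifted. Their difference had a median of -0.01 log2 units, and 54 members were higher and 57 lower at 6 h. The sum of their FPKM was 20678 ± 719 at 0 h and 20682 ± 483 at 6 h (mean ± SD of 3 libraries). In 50 of the 111 members (45.0%) the libraries of these times did not overlap, 24 being higher and 26 lower at 6 h. The background share was 68.6% of the tested genes. A small difference of means can thus still separate the libraries. MD08G1161100, just inside the limit, had 148.3, 144.7 and 149.5 FPKM at 0 h and 129.6, 120.2 and 122.5 at 6 h. Its times did not overlap, and its difference was -0.25 log2 units.

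The comparison of 24 h with 0 h depended on the third 24 h library. The rule held the 24 h means near those of 0 h with this library included, and it was high in most members. Leaving it out therefore lowers most of their 24 h means, from a start that the rule had fixed near 0 h. The third library was nearly as high in the other genes of the window. The values without it given here cannot show whether the members fell. With all libraries the median difference of the members was 0.00 log2 units, and 55 of 111 were lower at 24 h. Without the third library the median was -0.16, and 99 of 111 were lower. In the tested genes these medians were 0.01 and 0.01, and without that library 49.5% of them were lower. The other genes of the window had medians of 0.24 and 0.10. Against 6 h, the members had a median of -0.01 with all libraries and -0.16 without the third, and 94 were then lower at 24 h. With all libraries, those of 24 h and 0 h did not overlap in 8 of 111 members (7.21%), and the background was 64.2% of the tested genes. Between 24 h and 6 h it was also 8, at a background of 59.3%. Without the third 24 h library, which was tried after seeing the data, 24 h and 0 h did not overlap in 71 members (64.0%), 66 of them lower at 24 h, at a background of 75.5%. Between 24 h and 6 h it was then 83 members (74.8%), 77 of them lower at 24 h, at a background of 72.5%. The summed FPKM of the members at 24 h was 18462 and 18509 in the first and second library and 24948 in the third. The first and second were below all libraries of 0 h and 6 h, which lay between 19848 and 21117, and the third was above them all.

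**Figure D4:**
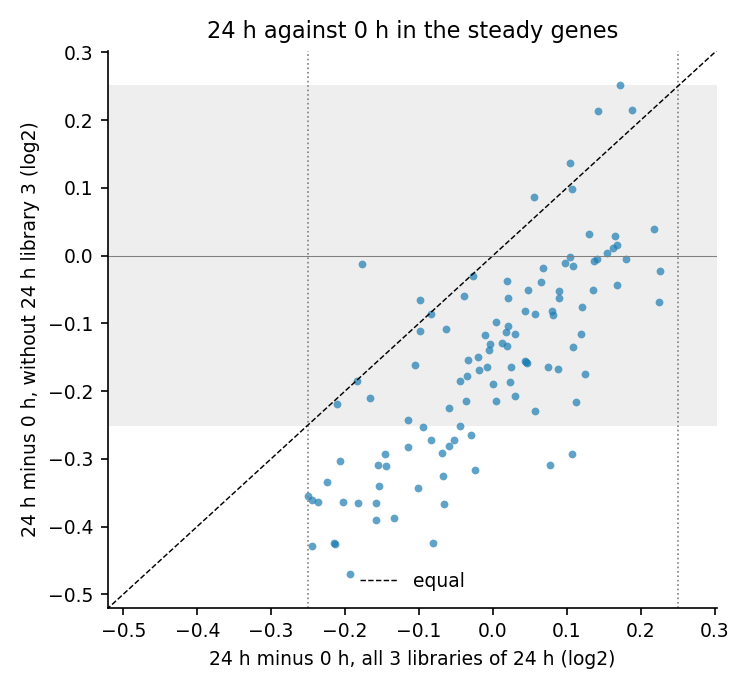
Difference of 24 h from 0 h in log2(FPKM + 1) for each of the 111 members, with all 3 libraries of 24 h (horizontal axis) and without the third (vertical axis). Dotted lines and the grey band mark the limit of 0.25 in each direction; most points lie below the dashed line of equality, and 99 lie below 0 on the vertical axis.

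Leaving out single libraries showed how far membership rests on each. Without any 1 of the 0 h or 6 h libraries, 100 to 105 of the 111 members kept the limits. The number was 88 without the first 24 h library, 94 without the second and 61 without the third. The rule itself, run without the third 24 h library, gave 91 genes, of which 58 were members. These are 52.3% of the members and 63.7% of the new list. The 50 members that went past the limits then had a median level of 175.7 FPKM, against 149.9 FPKM in the 61 that kept them. Of the 50, 33 were lower at 24 h than at 0 h by more than the limit and 1 was higher. With every library left out in turn, 41 members kept the limits each time.

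Membership also depended on the scale on which libraries are compared. The deposited FPKM follow median-ratio scaling of the reads to within 0.443%, so they set the typical gene equal between libraries. TMM scaling, another method of that kind, kept 111 of 111 members. When each library was scaled to the same summed FPKM, 52 members kept the limits. Scaling to the same number of reads kept 47, and quantile normalization kept 23. On the scale of equal summed FPKM the tested genes had a median difference of -0.14 log2 units at 24 h against 0 h. The members were at -0.20 there, which is 0.06 below that general shift. With quantile normalization the members were at -0.32 and the tested genes at -0.09. Without the third 24 h library the members lay below the tested genes by 0.17 log2 units on the deposited scale and by 0.18 on that of equal summed FPKM. The members were chosen with that library included, and their 24 h means had to lie near those of 0 h with it, so a lower value without it follows in part from the choice.

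**Figure D5:**
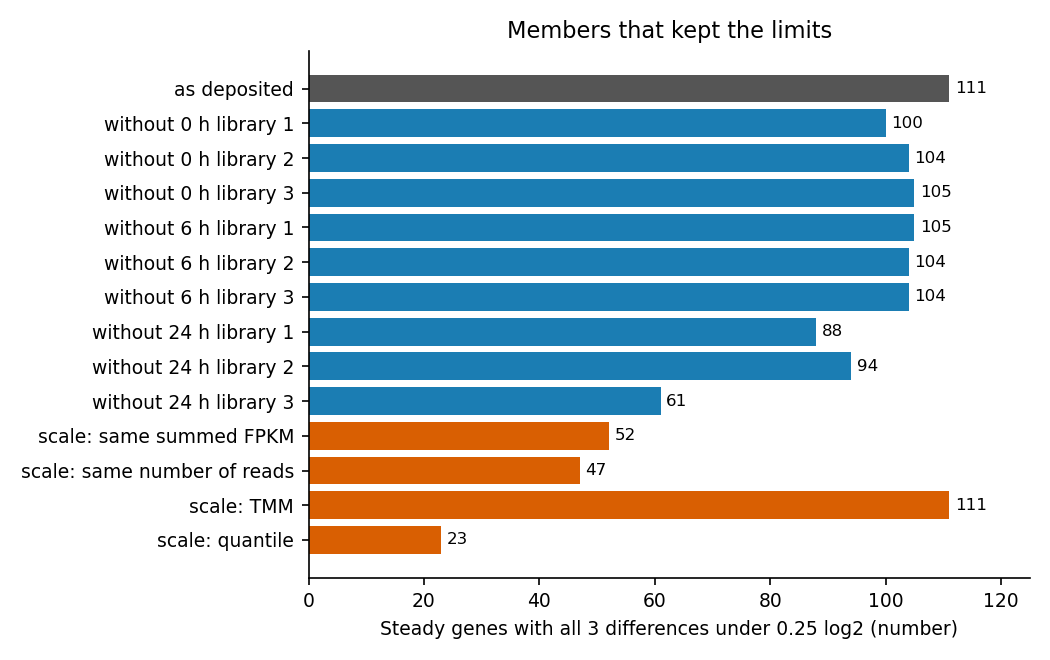
Number of the 111 members (horizontal axis) with all 3 differences between times under 0.25 log2 units, as deposited (grey), with 1 library left out (blue) and on other scales (orange). The bars fall to 61 without the third 24 h library and to 23 with quantile normalization, and stay at 111 with TMM.

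The share of all FPKM that the members held does not depend on a scaling factor per library. At 0 h the share was 3.12% ± 0.00343, and 6 h gave 3.09% ± 0.0282 (mean ± SD of 3 libraries). At 24 h it was 2.70% ± 0.140 (SD, n = 3). Without the third library it was 2.62%. All 24 h libraries were lower than all others, with 2.62%, 2.63% and 2.87%, including the third. The lowest value at the other times was 3.06%. The members' summed FPKM, held level between times by the rule, averaged 20678 at 0 h, 20682 at 6 h and 20640 at 24 h. The summed FPKM of all genes was 704706, 704052 and 870488 in the 24 h libraries. It was 635836 to 678451 in those of 0 h and 6 h. The lower mean share thus came from the larger total. In the third library the members' sum was the highest of all, at 24948. In the first and second it was below all others, at 18462 and 18509. The rule used the same contrast, so the difference in share was not tested.

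The rule, but not the set of members, can be checked in libraries left out of a choice. All 9 libraries were used to choose the members, so none was left out for them. The lists below are separate choices, and their overlap with the members is not given, so their shares do not test the members. The rule was applied to the libraries of 2 replicate numbers, and its differences were then read in the 3 libraries of the remaining number. Leaving out replicate number 1, 112 genes were chosen, and 45 of them (40.2%) kept all 3 limits in the libraries left out. For number 2 it was 39 of 106 genes (36.8%), and for number 3, which holds the third 24 h library, 25 of 90 (27.8%). Among all genes of the window the corresponding shares were 9.54%, 10.2% and 7.71%. For 6 h against 0 h alone, 76.8%, 82.1% and 86.7% of the chosen genes stayed within the limit in the libraries left out, against 29.4% to 30.3% of the window. For 24 h against 0 h the shares were 67.9%, 58.5% and 36.7%, against 22.9% to 24.9%. The median difference of 24 h from 0 h in the libraries left out was -0.12, -0.18 and 0.32 log2 units for numbers 1, 2 and 3. Single libraries are compared here in place of means, so a wider scatter than in the choice itself is part of the design.

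The linear model over all tested genes gives the background and the error of each difference. The rule used the same contrasts, so the counts of members below describe the choice and support nothing about it. It was fitted to log2(FPKM + 1) with limma, and a gene was called at a Benjamini-Hochberg adjusted p under 0.05 and a difference of at least 1 log2 unit. No member could be called, because the rule keeps differences under 0.25, while 15.5% of the tested genes were called between 6 h and 0 h, 19.8% between 24 h and 0 h and 16.5% between 24 h and 6 h. By adjusted p alone the background was 51.1%, 59.0% and 49.7%, and 72.7% in the F-test over the 3 times. The members passing it were 0, 1 and 0, and 0 in the F-test. At an unadjusted p under 0.05 they were 1, 3 and 2, and 0 in the F-test. The background at that threshold was 14441, 16093 and 14212 of the 25362 tested genes, and 19127 in the F-test. When the recovered reads were fitted with limma-voom instead, 0, 1 and 1 members passed the adjusted p. In the F-test of that fit 0 members passed, against 18622 of all genes tested. The 1 member that passed in the fit to FPKM was MD15G1422600, which also lay just inside the limit of the rule. It had 113.8, 117.9 and 114.8 FPKM at 0 h, 96.4, 100.6 and 103.2 at 6 h, and 89.5, 90.8 and 110.7 at 24 h. All its 24 h libraries were below those of 0 h, and its difference by the rule was -0.25 log2 units. The SE in the fit, which averages log2 values in place of FPKM, was 0.0956 and does not belong to that difference. With any 1 of the 0 h or 6 h libraries or of the first and second 24 h libraries left out, 0 members passed in this comparison.

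The low number of members past the p threshold depended on the third 24 h library as well. With it, the median 95% interval of a member's difference reached 0.28 log2 units to each side, more than the limit of the rule. Without it, the interval reached 0.14 units in the comparison of 6 h with 0 h and 0.15 in those of 24 h with either time. Then 32 members passed the adjusted p between 6 h and 0 h, against a background of 64.2%, and 67 passed the F-test, against 79.4%. Between 24 h and 0 h 56 passed, 53 of them lower at 24 h, and the background was 63.2%. Between 24 h and 6 h it was also 56, with 52 lower, at a background of 55.1%. With libraries scaled to the same summed FPKM, 13 members passed between 6 h and 0 h, at a background of 49.3%. On that scale 54 passed between 24 h and 0 h, each of them lower at 24 h, at a background of 59.0%. Between 24 h and 6 h it was again 54, at a background of 49.8%, and 65 members passed the F-test at a background of 72.0%.

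The values at the edges of the set were as follows. The members with the highest means were MD11G1307800 at 466.4 FPKM and MD08G1126500 at 448.0 FPKM. The latter had 420.5, 430.1 and 375.6 FPKM at 0 h, 431.8, 489.2 and 449.2 at 6 h, and 412.3, 392.6 and 630.5 at 24 h, again with the third 24 h library above all others. No gene above 500 FPKM kept the limits. The members with the lowest means were MD04G1060500 at 101.6 and MD09G1210700 at 102.2 FPKM, and the nearest genes below the window that kept the limits had 99.9 FPKM each. At the limit of 0.25, the members with the largest difference were MD15G1422600 and MD08G1161100, at 0.249995 and 0.247 log2 units in size. The genes just outside were MD15G1231500 and MD06G1100400, at 0.2512 and 0.2514. MD15G1231500 had 353.2, 340.5 and 374.1 FPKM at 0 h and 424.8, 404.6 and 442.0 at 24 h, and it kept the limits when the third 24 h library was left out.

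A smaller group kept the limit of 0.25 on the other scales and without single libraries. On all 4 other scales 23 members kept the limits, and 14 of these also did so with each library left out in turn. These 14 were picked after their values were seen, by the contrasts of the rule, so they are named as a description. MD08G1236500 had the smallest range among them. It stood at 110.3, 105.8 and 105.6 FPKM at 0 h, at 119.4, 125.8 and 116.0 at 6 h, and at 113.3, 116.3 and 117.1 at 24 h. Its 24 h libraries lay close together, those of 6 h and of 24 h were all above those of 0 h and overlapped each other, and the highest value was 1.19 times the lowest. MD11G1307800, the most abundant member, was another of the 14. It had 435.3, 447.0 and 466.8 FPKM at 0 h, 432.2, 543.1 and 479.2 at 6 h, and 416.5, 451.4 and 526.2 at 24 h. Its times overlapped throughout. MD12G1241700, MD04G1225000 and MD07G1189600, the members of smallest range on the deposited scale, were not among the 14, since each went past the limits on at least 1 other scale.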

How the data were processed

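Apple fruit peel RNA (Trizol) was sequenced from Illumina mRNA libraries, per the labels' protocols. The tools HISAT2 and Cufflinks are named by the submitters' processing notes. Tool versions, build, gene models, strandedness and filtering are not given in the sources used, so values of near-identical or overlapping genes are uncertain. The authors deposited FPKM per gene and library, without pooling. Nothing says whether replicates came from separate fruit, so p-values cover the variation among these libraries, which may be technical.

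The members, the lists and the tests were chosen with earlier results of these data known. Whole reads and gene lengths were recovered from the FPKM steps (numba 0.67.0). All values above 0 (100%) came within 0.1 of a whole number of reads. A gene length was accepted only where its values did so, so this share is no separate check of the recovery. Genes reaching 1 FPKM on average were fitted as log2(FPKM + 1), a scale on which a fold of low genes is understated, with limma 3.58.1 in R 4.3.3. The fit had 1 mean per time over 9 libraries, 6 residual degrees of freedom and an intensity trend, and p-values were adjusted over all 25362 tested genes. The fit, the recovery and the rule were tried on simulated data. The simulated libraries for the fit had changes at 6 h only and no library that stood apart, so they cannot speak for the 24 h results. Those for the recovery reused the recovered lengths. The interval of a difference is the 95% interval of this model.

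Because the rule used the differences between times, counts of members past the p threshold are a description and no evidence on the set, and within-time spread is described with no test over genes. Named genes are the 3 members with the smallest and the 3 with the largest range of log2(FPKM + 1), the 2 with the highest and the 2 with the lowest mean, and the 2 just inside and 2 just outside the limit of 0.25; exceptions are marked. Alternatives were other pseudocounts, level windows, limits, time summaries and scales, fits with other settings, and each library left out in turn. Scaling to equal summed FPKM with the third 24 h library left out as well, and counts of overlap without that library, were chosen after seeing the data.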

Additional observations from a re-analysis of the deposited data

How the results depend on the processing

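The number of members (111) was 230 with a lower level limit of 50 FPKM and 32 with one of 200 FPKM. It stayed within a factor of 1.5 of 111 under the other alternatives tried, with 74 at a limit of 0.2, 151 at 0.3, 103 with the median of a time, 76 to 114 on other scales, 91 to 113 with 1 library left out, and 81 with equal summed FPKM and the third 24 h library left out together. A like number did not mean the same genes: 52 of the 88 genes found with equal summed FPKM and 23 of the 76 found with quantile normalization were members. The median within-time SD (0.149) was 0.0863 with equal summed FPKM, 0.0773 with quantile normalization and 0.0667 to 0.164 with 1 library left out. The share of summed FPKM became 3.29% at 0 h and 3.05% at 6 h with quantile normalization; a pseudocount does not enter it. The shares kept in left-out replicates became 48.9% (number 2) and 46.2% (number 3) with equal summed FPKM, and 57.5% and 39.2% with quantile normalization. With a pseudocount of 5, which shrinks differences by construction, 2046, 2697 and 2398 genes were called in place of 3939, 5014 and 4173 for 6 h and 0 h, 24 h and 0 h, and 24 h and 6 h.

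Members with an adjusted p under 0.05 in these comparisons and in the limma F-test numbered 37, 90, 69 and 94 with quantile normalization and 13, 54, 54 and 65 with equal summed FPKM. With quantile normalization these were 33.3%, 81.1%, 62.2% and 84.7% of the members. The background there was 14091, 15650, 13176 and 19302 of the 25362 tested genes. Leaving out 1 library gave 0 to 32, 0 to 56, 0 to 56 and 0 to 67 members, the upper value each time without the third 24 h library. Without the intensity trend 0 passed between 24 h and 0 h and 1 between 24 h and 6 h; a pseudocount of 0.1, a mean of at least 5 FPKM and limma-voom on the recovered reads each gave 1 in the latter. The cause of these changes was not tested. Replicate numbers did not pair the libraries (correlation of deviations of same-numbered libraries -0.06 to 0.08 across genes). With the replicate block, 3941, 5019 and 4175 genes were called, and 0, 1 and 0 members passed the adjusted p. Counting error was a median of 0.0266 log2 units per library in the members, and the part of depth in their spread was not tested.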
